A study of Homo sapiens with 28 samples.

Results

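Hypoxia ZHX2 peaks that lay in chromatin carrying acetylated histone H3 lysine 27 (H3K27ac) and held no CTCF peak are described here. They were chosen from measured values: peaks of the hypoxia ZHX2 list on chromosomes 1 to 22 and X that shared at least 1 bp with a hypoxia H3K27ac peak and none with a hypoxia CTCF peak. The rule found 10501 members among 32343 hypoxia ZHX2 peaks (32.5%). The remaining peaks were 13086 with CTCF and H3K27ac, 7085 with neither and 1671 with CTCF without H3K27ac. Having no CTCF peak means that none was called there, not that CTCF was absent.

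The data came from chromatin immunoprecipitation followed by sequencing (ChIP-seq) in T47D cells, an established line from a luminal breast tumour. Endogenous ZHX2, CTCF and H3K27ac were each mapped in normoxia and in hypoxia, and Flag was mapped in hypoxia in cells with Flag-tagged ZHX2 of wild-type (WT) or PA form, a mutant named only so in the labels. The labels give neither the oxygen level nor the hours of hypoxia, and they give lentiviral infection with hygromycin or puromycin selection without saying for which samples. There were 8 immunoprecipitated groups of 2 samples and another 12 samples with no antibody, and each of the 8 groups had 1 deposited peak list. Nothing below therefore has a replicate check. Tests compare classes of peaks within the hypoxia ZHX2 list, and since neighbouring peaks are not independent their p-values are smaller than the count of separate sites warrants. No source used here gives the read depth.

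ZHX2, a protein with zinc fingers and homeodomains, can act on transcription and is a target of the von Hippel-Lindau ubiquitin ligase. H3K27ac is placed by acetyltransferases on nucleosomes flanking active promoters and enhancers, and it marks where regulatory DNA is in use in a given cell. CTCF binds a long motif, halts cohesin and anchors chromatin loops, so many of its sites are shared between cell types, whereas enhancers marked by H3K27ac without CTCF tend to differ between them.

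The 6 stretches below are upstream sequences at members, chosen by fold and not by motif. The shares of the short promoter motifs marked in them are given further on. They belong to the members with the highest fold whose summit fell in a promoter window of the RefSeq table (build GRCh38.p14), passing over B9D2, ZNF41, TXNDC15 and WDR90, which had under 60 gene-free bases upstream. Capitals mark matches, on either strand, to the GC box, which reads GGGCGG or on the other strand CCGCCC, to the CCAAT box, whose other strand reads ATTGG, or to the cyclic AMP response core, which reads TGACGT and on the other strand ACGTCA. Each runs 5′ to 3′ on the strand of its gene and ends upstream of the annotated start.
PGK1: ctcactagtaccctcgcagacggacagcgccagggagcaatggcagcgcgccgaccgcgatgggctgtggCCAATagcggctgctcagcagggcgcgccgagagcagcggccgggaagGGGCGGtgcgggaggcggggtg
AP2B1: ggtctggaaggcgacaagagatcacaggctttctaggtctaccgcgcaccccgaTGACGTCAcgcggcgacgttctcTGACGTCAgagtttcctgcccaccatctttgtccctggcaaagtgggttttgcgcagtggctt
RRM1: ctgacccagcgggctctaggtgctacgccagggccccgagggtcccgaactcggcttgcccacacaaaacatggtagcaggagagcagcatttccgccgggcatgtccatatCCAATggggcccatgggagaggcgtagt
MBD4: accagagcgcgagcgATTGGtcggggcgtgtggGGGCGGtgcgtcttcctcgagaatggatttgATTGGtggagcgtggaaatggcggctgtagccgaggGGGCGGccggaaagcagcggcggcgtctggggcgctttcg
RANBP6: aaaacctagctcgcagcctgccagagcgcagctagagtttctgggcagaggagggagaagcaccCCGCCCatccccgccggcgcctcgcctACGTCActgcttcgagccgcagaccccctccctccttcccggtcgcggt
PRDM2: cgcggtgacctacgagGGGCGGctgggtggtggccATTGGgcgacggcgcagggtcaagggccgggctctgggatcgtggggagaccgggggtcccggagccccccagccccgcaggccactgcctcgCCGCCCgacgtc

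The stretch at PGK1, which encodes a glycolytic enzyme, is chrX:78104070-78104209 on the plus strand, with the member's summit 108 bp before the annotated start. At AP2B1, which encodes an adaptor subunit of clathrin-coated vesicles, it is chr17:35587182-35587321 on the plus strand, with the summit 66 bp before the start. The AP2B1 stretch holds 2 capital runs, each a palindrome read on both strands, and neither a GC box nor a CCAAT box. RRM1 (a ribonucleotide reductase subunit, chr11:4094545-4094684, plus) had its summit 9 bp after the start. MBD4 (a DNA glycosylase, chr3:129439953-129440092, minus) had it 75 bp before, with 2 CCAAT boxes and 2 GC boxes in the stretch. RANBP6 (an importin-like protein, chr9:6015625-6015764, minus) had it 28 bp after the start and PRDM2 (a zinc finger methyltransferase, chr1:13700048-13700187, plus) 23 bp after. GC content ran from 57.9% at AP2B1 to 77.1% at PRDM2.

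Members were modest peaks. Their median fold enrichment, the deposited ratio over background, was 3.25 (quartiles 2.74 and 3.96, range 1.59 to 70.5), beside 3.67 in peaks with CTCF and H3K27ac, 3.11 in peaks with neither and 3.24 in peaks with CTCF without H3K27ac. Their median width was 328 bp, beside 505, 255 and 294 bp. Only 99 members had a fold over 10. Members made up 33.3% of the lowest decile of hypoxia ZHX2 peaks by score, 37.8% of decile 5 and 20.7% of the highest. These values come from the lists that chose the members and are descriptions.

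Most members sat well inside an acetylated domain: 9524 (90.7%) lay wholly within an H3K27ac peak. They occupied 8250 of 46713 H3K27ac domains (17.7%), which had a median width of 2908 bp beside 1309 bp for all domains. A single member was found in 6873 of these domains, and 409 domains held 3 or more, with a median width of 13340 bp. Of summits inside a domain of at least 1000 bp cut into 10 equal bins, 59.1% fell in the middle 4 bins, against 59.7% of those of peaks with CTCF and H3K27ac. The domain itself often held CTCF elsewhere: 4798 members (45.7%) were in a domain with a CTCF peak that they did not touch, and 5703 (54.3%) in a domain with none. The median distance to the nearest hypoxia CTCF peak was 4308 bp.

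The CTCF limit of the rule cut through a continuum. The 394 members 1 to 100 bp from a hypoxia CTCF peak were at a WT Flag peak in 73.4% of cases and at a normoxia CTCF peak in 44.4%. Just across the limit, the 278 peaks that overlapped CTCF by 1 to 50 bp were at a WT Flag peak in 75.2% and at a normoxia CTCF peak in 66.5%. Members over 20 kb from CTCF, 1837 in number, were at a WT Flag peak in 47.03%. At the acetylation limit, the 86 members with 1 to 50 bp in an H3K27ac peak were at a WT Flag peak in 22.1%, beside 28.1% of the 320 peaks with neither that lay 1 to 250 bp from one.

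The first comparison asked where Flag-tagged ZHX2, pulled down with another antibody, also gave a peak. Flag peaks were wide: those at members had a median width of 1482 bp for WT and 1893 bp for PA, beside 328 bp for members. Wide intervals make an overlap of 1 bp easier, so a shared interval need not be the same bound site. In the other direction, 44.9% of the 31278 WT Flag peaks and 67.2% of the 16019 PA Flag peaks overlapped any hypoxia ZHX2 peak. A WT Flag peak overlapped 5959 members (56.7%, 95% Wilson interval 55.8 to 57.7), and 54.2% of all hypoxia ZHX2 peaks. Among the other classes the share was 81.1% with CTCF and H3K27ac, 8.53% with neither and 20.8% with CTCF without H3K27ac. The odds were lower in members than in the first class (odds ratio 0.306, 95% interval 0.288 to 0.324), and higher than with neither (14.1, 12.8 to 15.4) or with CTCF without H3K27ac (4.99, 4.41 to 5.65). Each of these differences passed a two-sided Fisher exact test with Benjamini-Hochberg adjustment over the 17 tests made.

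PA Flag peaks followed the same order of classes. They overlapped 4531 members (43.1%) and 44.2% of all hypoxia ZHX2 peaks, beside 70.0%, 5.35% and 13.0% in the other classes. Members had lower odds than peaks with CTCF and H3K27ac (odds ratio 0.326, 0.309 to 0.344) and higher odds than the other classes (13.4 and 5.09), and all 3 passed. The WT and PA lists are not separate calls: all 15163 PA peaks that overlapped a WT peak had the same start and end as one, of 16019 PA and 31278 WT peaks. An overlap with both lists is therefore 1 shared interval kept in both.

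Among members at a WT Flag peak, 4471 of 5959 (75.0%) were also at a PA Flag peak. The same share was 85.4% for peaks with CTCF and H3K27ac, 57.6% with neither and 58.0% with CTCF without H3K27ac. Members had lower odds of the PA overlap than the first class (odds ratio 0.513, 0.474 to 0.556) and higher odds than the others (2.21, 1.86 to 2.62, and 2.17, 1.74 to 2.71), and each difference passed. Of members with no WT Flag peak, 60 of 4542 (1.32%) were at a PA Flag peak.

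**Figure D1:**
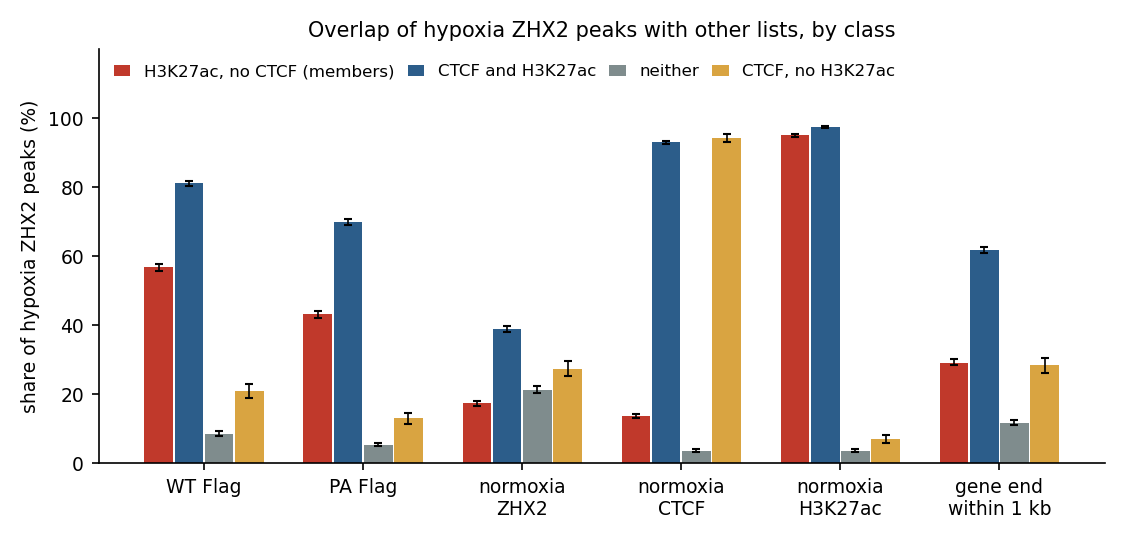
Share of hypoxia ZHX2 peaks in each of 4 classes (y axis, %) that overlap a peak of another list or lie within 1 kb of a protein-coding gene end (x axis). Bars are shares and whiskers 95% Wilson intervals; members (red) lie at 56.7% for WT Flag, between 81.1% with CTCF and H3K27ac and 8.53% with neither.

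The second comparison asked whether members already had ZHX2 in normoxia. A normoxia ZHX2 peak overlapped 1827 members (17.4%, 16.7 to 18.1), the lowest share of the 4 classes, beside 27.4% of all hypoxia ZHX2 peaks. It was 38.8% with CTCF and H3K27ac (odds ratio of members 0.332, 0.312 to 0.353), 21.3% with neither (0.776, 0.719 to 0.838) and 27.4% with CTCF without H3K27ac (0.558, 0.495 to 0.628). The difference from peaks with neither passed (adjusted p = 8.97e-11, two-sided Fisher exact test), but with 1 peak kept per 100 kb and class it turned to 1.09 and no longer passed. It was larger within 10 strata of score (0.416) or of width (0.377) and at a −log10 q of at least 5 (0.510). Against peaks with CTCF and H3K27ac it shrank to 0.599 within strata of width, and passed. Where both lists had a peak, the summits were close, with a median distance of 68 bp. The median fold was 4.02 in the hypoxia list and 3.51 in the normoxia list, which were not put on a common scale. The hypoxia ZHX2 list holds more than the normoxia list (14586 peaks), so an absent normoxia peak can be a peak under the calling threshold.

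Both overlaps depended on how strong the member was. From the lowest to the highest decile of score, the share of members at a normoxia ZHX2 peak went from 6.32% to 69.8%, and that at a WT Flag peak from 47.5% to 82.4%. Peaks with CTCF and H3K27ac went from 70.0% to 93.9% for WT Flag over the same deciles. Within 10 strata of score the odds of a WT Flag overlap still differed in the same direction from each class.

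**Figure D2:**
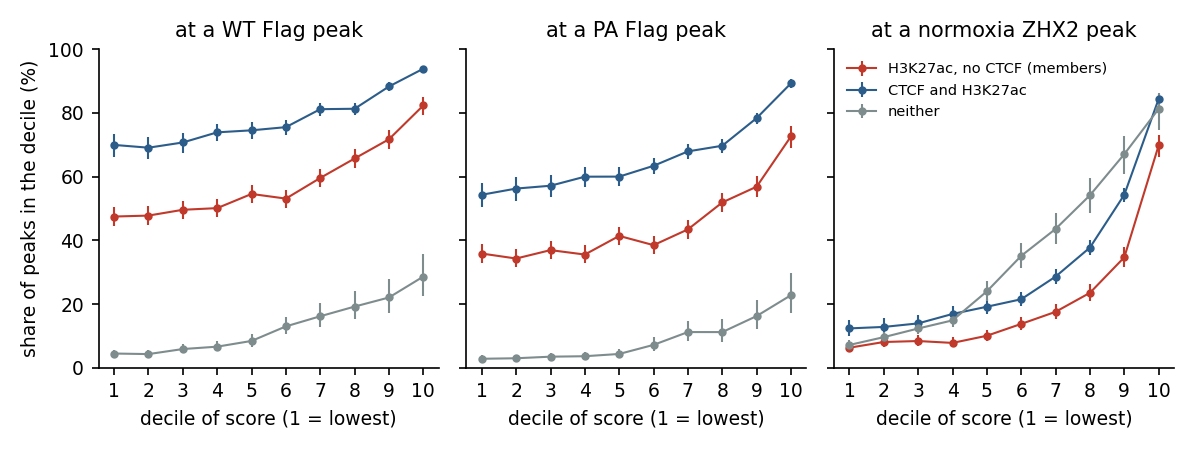
Share of peaks (y axis, %) at a WT Flag, PA Flag or normoxia ZHX2 peak in each decile of score of the hypoxia ZHX2 list (x axis, 1 = lowest), for members and for 2 other classes, with 95% Wilson intervals. Members lie between the other classes for both Flag lists in every decile, at 82.4% for WT Flag in the highest.

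Taking the lists together, 3905 members (37.2%) were in the hypoxia ZHX2 list alone, with neither Flag list nor a normoxia ZHX2 peak, beside 36.9% of all hypoxia ZHX2 peaks. They were narrow (median 288 bp) and 11.1% of them lay at a gene end. The next largest set, 3457 members (32.9%, beside 27.2% of all peaks), had both Flag lists and no normoxia peak, and 44.7% of them lay at a gene end. A set of 1264 (12.0%, beside 8.10%) had WT Flag alone, and 1014 (9.66%, beside 16.4%) had all of these lists, with a median fold of 4.36 and 59.0% at a gene end.

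Most members were in acetylated chromatin in normoxia too. A normoxia H3K27ac peak overlapped 9984 members (95.1%) and 71.4% of all hypoxia ZHX2 peaks. The odds were lower than in peaks with CTCF and H3K27ac, at 97.4% (odds ratio 0.512, 0.445 to 0.589), and this difference passed. The 517 members without normoxia H3K27ac lay in weak domains, with a median domain fold of 3.61 beside 12.4 for the others. They were at a WT Flag peak in 32.5% of cases (28.6 to 36.7), beside 58.0% of the members with normoxia H3K27ac.

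Normoxia CTCF was found at a minority of members. It overlapped 1432 members (13.6%), beside 3.56% of peaks with neither (odds ratio 4.28, 3.73 to 4.91, which passed) and 47.7% of all hypoxia ZHX2 peaks, a share that includes the classes chosen for hypoxia CTCF. There were 1445 such normoxia CTCF peaks, of which 1153 (79.8%) overlapped no hypoxia CTCF peak, beside 17.7% of all normoxia CTCF peaks, a difference that the choice of members without hypoxia CTCF largely sets. Their median fold was 5.07, beside 5.71 for all normoxia CTCF peaks without a hypoxia one and 19.0 for all normoxia CTCF peaks. Members with normoxia CTCF were at a WT Flag peak in 71.0% of cases and at a gene end in 49.7%, beside 54.5% and 25.9% of members without it.

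The third comparison asked where members lay relative to genes. Within 1 kb of an annotated end of a protein-coding gene were 3064 members (29.2%) and 38.5% of all hypoxia ZHX2 peaks. Peaks with CTCF and H3K27ac were at gene ends in 61.9% of cases (odds ratio of members 0.254, 0.240 to 0.268) and peaks with neither in 11.7% (3.11, 2.86 to 3.38), and both differences passed. Against peaks with CTCF without H3K27ac, at 28.4%, the odds ratio was 1.04 (0.928 to 1.17, adjusted p = 0.505, two-sided Fisher exact test). That call was not stable: it passed with peaks reduced to 200 bp, with 1 peak per 100 kb and class and with a 50% overlap (odds ratios of 1.18 to 1.26), and did not pass with a 3 kb window (1.04). With annotated starts alone, and so without chromosome 8, the shares were 27.5% and 21.1%, an odds ratio of 1.42 (adjusted p = 3.43e-08, Fisher exact test). The gene-end window also takes in the far ends of genes.

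Away from gene ends, 4143 members (39.5%) were inside a gene, 2399 (22.8%) were outside genes and over 10 kb from an end, and 895 were outside genes but nearer. Peaks with CTCF and H3K27ac were inside genes in 21.2% and beyond 10 kb in 11.0%. Flag overlap followed place: 81.5% of members at gene ends were at a WT Flag peak and 70.6% at a PA Flag peak, beside 46.97% and 33.3% of those inside genes and 42.6% and 27.1% of those beyond 10 kb. Normoxia ZHX2 was at 25.8%, 13.9% and 13.0% of the same members. Within strata at and away from gene ends, the odds of a WT Flag peak stayed lower in members than in peaks with CTCF and H3K27ac (odds ratio 0.443).

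Around annotated starts, members gathered at the start itself. Of 10066 members on chromosomes with promoter entries, 2573 had their summit within 1 kb of an annotated start, at a median distance of 162 bp, and 50.9% of them lay upstream. For 6956 peaks with CTCF and H3K27ac that distance was 110 bp.

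**Figure D3:**
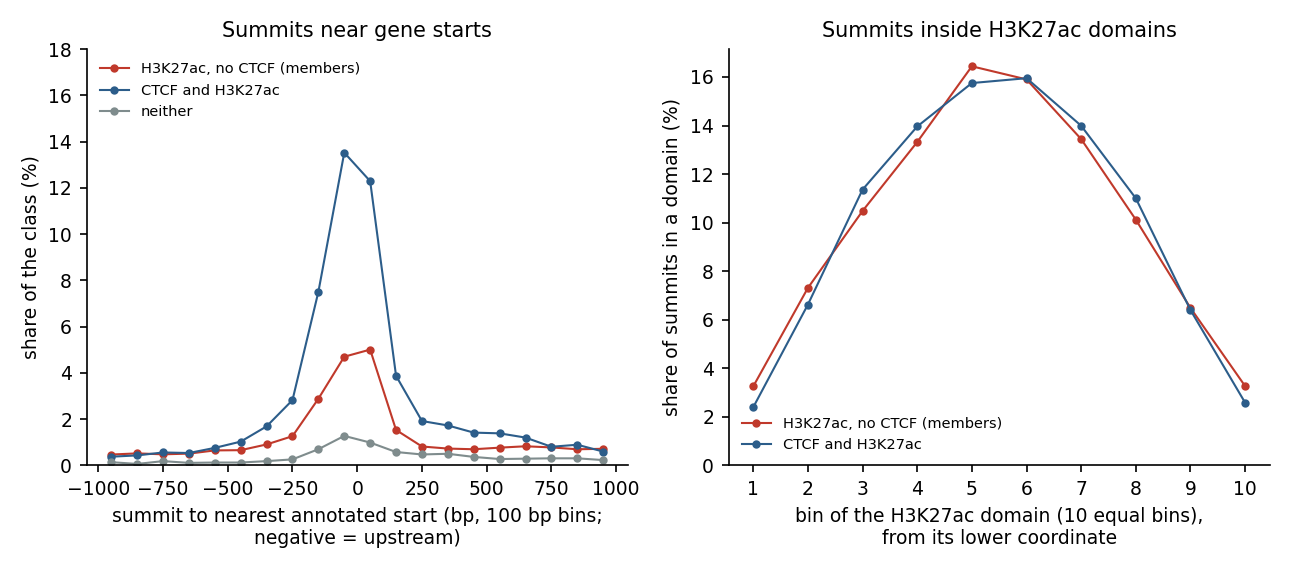
Left, distance of summits from the nearest annotated start (x axis, bp, 100 bp bins) against the share of each class (y axis, %); right, bin of the H3K27ac domain of at least 1000 bp that holds the summit (x axis) against the share of summits inside a domain (y axis, %). Members peak at the start at a lower share than peaks with CTCF and H3K27ac, and inside domains both lie mostly in the middle 4 of 10 bins (59.1% and 59.7%).

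Promoter letters were read in windows of 300 bp, from 250 bp before to 50 bp after the annotated start. Members overlapped 2151 promoters with no other class of ZHX2 peak, peaks with CTCF and H3K27ac overlapped 7395, and 11880 of the 22012 protein-coding promoters had no hypoxia ZHX2 peak. The members' promoters had a median GC content of 63.3%, below the 69.0% at peaks with CTCF and H3K27ac and above the 56.3% without ZHX2. The CCAAT box (CCAAT, both strands) was in 42.5% of the members' promoters (40.4 to 44.6), beside 30.0% (28.9 to 31.0), 36.6% and 34.7% of all promoters. Between the ZHX2 classes the GC box (GGGCGG) went the other way, at 68.3% and 80.1%, with 38.1% of promoters without ZHX2 and 56.3% of all. Short motifs match more or less often with base composition alone, and its part in these shares was not tested.

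Several motifs were more frequent at both ZHX2 classes than at promoters with no ZHX2 peak. The YY1 core (AAGATGGCG) was in 7.30% of the members' promoters, 4.46% of those with CTCF and H3K27ac, 0.328% without ZHX2 and 2.42% of all. The ETS motif (CCGGAAG) was in 23.0%, 19.2%, 7.31% and 12.8% in turn, and the cyclic AMP response core (TGACGT) in 14.2%, 11.6%, 6.24% and 8.90%. The hypoxia response core (ACGTG), which hypoxia-inducible factors bind and which every E-box CACGTG contains, was in 28.5%, 27.7%, 19.3% and 23.0%. The NRF1 core (GCATGCGC) was in 5.81%, 5.02%, 2.58% and 3.71%, and the E-box in 10.2%, 10.7%, 6.51% and 8.32%.

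Other motifs were less frequent at both ZHX2 classes than at promoters without ZHX2. The TATA box (TATAAA) was in 5.44% of the members' promoters, 3.88% of those with CTCF and H3K27ac and 13.9% without ZHX2. The motif of GATA factors (AGATAA) was in 4.37%, 2.975% and 11.8% in turn. For AP-1 (TGANTCA) the shares were 4.32%, 3.11% and 8.51%, and for the forkhead motif (TGTTTAC) they were 2.32%, 2.15% and 3.48%. Shares were lowest at peaks with CTCF and H3K27ac, so low shares of these motifs are not particular to members. The CTCF core (CCANNAGGG), a short part of the full motif, was in 5.25% of the members' promoters (4.39 to 6.28). It was in 6.30% of those with CTCF and H3K27ac (5.77 to 6.88, an overlapping interval), 7.03% without ZHX2 and 6.665% of all. A match of letters is a description and not a bound site.

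**Figure D4:**
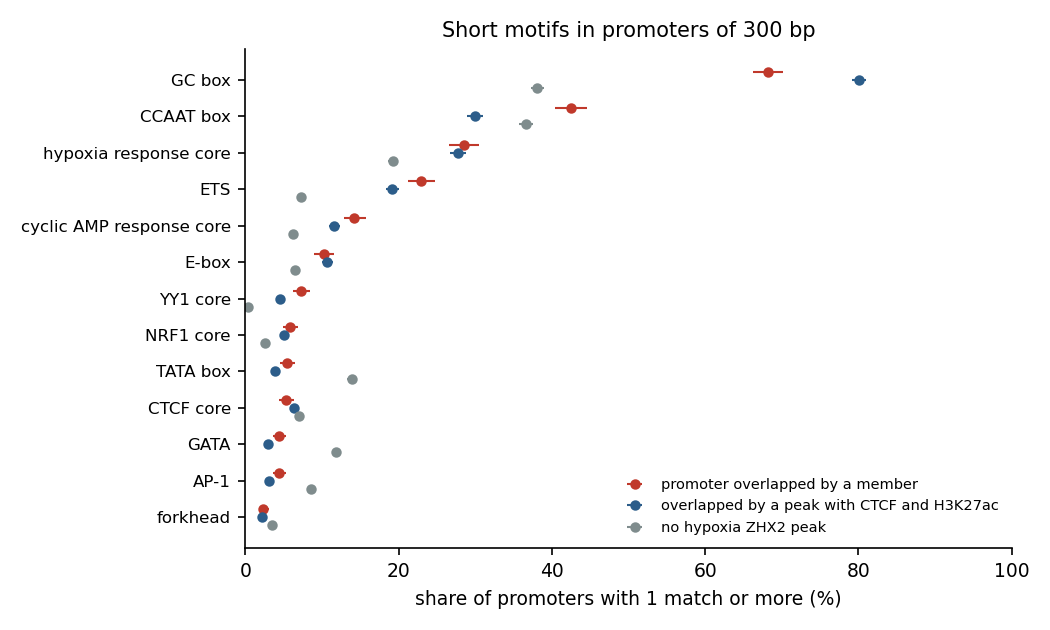
Share of 300 bp promoters with at least 1 match on either strand (x axis, %) for each short motif (y axis), at promoters overlapped by a member, by a peak with CTCF and H3K27ac, or by no hypoxia ZHX2 peak, with 95% Wilson intervals. The CCAAT box stands at 42.5% in the members' promoters and 30.0% at peaks with CTCF and H3K27ac, and the GC box at 68.3% and 80.1%.

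Among single members, the 15 with the highest fold at gene ends were wide for their class, from 732 to 2303 bp. The member at B9D2 and TMEM91 (chr19:41363736-41364842, a cilium gene and its neighbour) had a fold of 60.8 in hypoxia and 25.8 in normoxia, and was at both Flag lists. Folds of the hypoxia and normoxia lists were not put on a common scale, here or below. The next was PGK1 (chrX:78103702-78104433, 732 bp) with a fold of 42.5, at both Flag lists. Its normoxia ZHX2 peak had a fold of 2.99, at percentile 31.1 of the normoxia list, so the 2 lists placed it very differently. PGK1 also had a normoxia CTCF peak of fold 21.0, while the nearest hypoxia CTCF peak was 10935 bp away, and its H3K27ac domain was 8882 bp wide in hypoxia and 3105 bp in normoxia.

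ZNF41, a zinc finger gene on the X chromosome, had a member of fold 40.8 and a normoxia fold of 16.7. The member at HCFC1 (a transcriptional cofactor) and TMEM187 had a fold of 33.1, and SETD4 (a methyltransferase) had 29.8. TOR1A (a chaperone of the nuclear envelope) had 28.0 and AP2B1 27.9. Then came AKT1S1 with TBC1D17 at 27.2, RRM1 with STIM1 at 26.9, ASPDH with JOSD2 at 24.6 and MMAB with MVK (mevalonate kinase) at 24.2. TXNDC15, CEP97 (a centriole protein), MCRIP2 with WDR90 and IFT122 with MBD4 lay between 18.9 and 19.7. Each of these 15 had normoxia ZHX2 and WT Flag peaks.

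Members without a normoxia ZHX2 peak were weaker at gene ends. The highest was at RGPD6 with a fold of 9.65, in neither Flag list and in an H3K27ac domain of 257 bp. RGPD6 belongs to a family of near-identical copies, so reads there may be shared between copies. It was followed by SASS6 (a centriole protein) with TRMT13 at 9.23, FLT3LG with RPL13A at 9.22, PRR11 with SKA2 (a kinetochore protein) at 8.82 and ZNF300 at 8.68. SASS6, RPL13A and SKA2 were at a WT Flag peak and ZNF300 was not. Those with WT Flag and no PA Flag were led by WDR90 at 19.1, CASKIN1 with TRAF7 at 15.6, ZNF43 at 9.37, LOXL3 (a lysyl oxidase) at 8.94 and SEPTIN3 with WBP2NL at 8.86.

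The member with the highest fold of all was inside a gene. HIF1A, which encodes the oxygen-regulated subunit of hypoxia-inducible factor 1, held 2 members, at chr14:61734015-61734409 with a fold of 56.5 and at chr14:61746795-61747214 with 70.5. In the normoxia list their ZHX2 peaks had folds of 131 and 223, at percentiles 99.93 and 99.97 of that list, and neither had a normoxia H3K27ac peak. The latter lay 1044 bp from a gene end and was named after its value was seen. HIF1A held 13 hypoxia ZHX2 peaks in all, each with a normoxia ZHX2 peak, with folds from 4.52 to 146. Of these, 10 were peaks with neither CTCF nor H3K27ac, with a median fold of 67.3 and the highest of 146. High folds across this gene were therefore not particular to members, and their cause was not tested. The first member lay in an H3K27ac peak of 738 bp with a fold of only 2.43. Both members were at a PA Flag peak and neither was at a WT Flag peak. Among members over 10 kb from a gene end, the first HIF1A member led. TBC1D5 (chr3:17401881-17402299) had 41.8 in the hypoxia list and 2.64 in the normoxia list, at percentiles 99.93 and 15.1 of each, in an H3K27ac peak of 200 bp.

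AP3D1 (an adaptor subunit) followed at 24.2 and NFIA, a nuclear factor I gene, at 19.9. A member on chromosome 9 outside any gene (chr9:38436388-38436826) had 11.4, ZNF787 had 11.1, THRAP3 had 10.8 and NFIC, another nuclear factor I gene, had 10.6. All of them had a normoxia ZHX2 peak. The ZNF787 and THRAP3 members lay 112 and 139 bp from a hypoxia CTCF peak, and the NFIC member 23579 bp.

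Members also clustered within long genes. GSE1, which encodes a corepressor subunit, held 40 members among 91 hypoxia ZHX2 peaks in 507 kb, with folds from 1.71 to 7.15 and 21 of the 40 at a WT Flag peak. MED13L (Mediator) held 20 of 23, ARHGAP35 17 of 20, LOC124905135 16 of 19, SEPTIN9 16 of 16, AOPEP 13 of 16, KDM4B (a histone demethylase) 13 of 21 and CASZ1 (a zinc finger factor) 12 of 16. PA Flag overlap varied between these genes, beside 33.3% of all members inside genes away from their ends. It was found at 15 of the 40 in GSE1 and 7 of the 16 in SEPTIN9. LOC124905135 had 3 of 16 and AOPEP 2 of 13. MED13L had 1 of 20, ARHGAP35 1 of 17, CASZ1 1 of 12 and KDM4B 0 of 13.

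Single acetylated domains, also chosen for their counts, held many members too. The domain at MED13L, 53929 bp wide, held 19 members, of which 6 were at a WT Flag peak. A domain of 76748 bp at ARHGAP35 held 17 with 4 at WT Flag, and one of 79686 bp at LOC124905135 held 17 with 3. By contrast a 25952 bp domain on the X chromosome outside genes held 15 with 15 at WT Flag, and one of 54441 bp at PARD6B (a polarity protein) held 14 with 13. The X chromosome and PARD6B domains also held 14 and 8 peaks with CTCF and H3K27ac, beside 2, 2 and 4 in the others. Members of a domain can lie in the same wide Flag peak, so these counts are not of separate Flag peaks. By chromosome, members made up from 26.4% of hypoxia ZHX2 peaks on chromosome 5 to 41.0% on chromosome 19 and 47.3% on X.

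At the level of genes, 3296 of 19821 protein-coding genes (16.6%) had a member within 1 kb of an end, and 11154 (56.3%) had any hypoxia ZHX2 peak. Of the former, 2102 had no other class of ZHX2 peak and 1114 also had a peak with CTCF and H3K27ac. The gene lists below stand beside this 16.6% of all protein-coding genes and carry no test. That share runs over all genes: among the 11154 with any hypoxia ZHX2 peak, 3296 had a member. A list's share therefore also follows how many of its genes had any hypoxia ZHX2 peak. That number was 71 of 85 for cytosolic ribosomal proteins, 33 of 40 for hypoxia-induced genes and 22 of 26 for luminal identity. Mitochondrial ribosomal proteins had 66 of 77, proteasome subunits 23 of 31, oxidative phosphorylation 24 of 30 and cell cycle 25 of 36. For Mediator, acetyltransferases and BET it was 28 of 32, and for deacetylases and corepressors 27 of 30. AP-1 and early response had 24 of 29, NF-kappaB 18 of 22, the unfolded protein response 16 of 22 and zinc finger ZNF genes 314 of 517. Adhesion and invasion genes had 25 of 36, and the ZHX family with hypoxia signalling 11 of 13. A list share above 16.6% is therefore not by itself particular to members. All genes of these lists were found by symbol or older symbol.

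Cytosolic ribosomal protein genes had a member at 30 of 85 (35.3%), with RPS27 at a fold of 15.8, RPL13A at 9.22 and RPL41 at 7.57, and 29 of the 30 had one at a WT Flag peak. Mitochondrial ribosomal proteins had 23 of 77 (29.9%), led by MRPS10 at 10.2 and MRPL52 at 7.38. Proteasome subunits had 10 of 31 (32.3%), all with no other class of ZHX2 peak and all at both Flag lists, led by the catalytic subunit PSMB5 at 7.52 and the ATPase PSMC6 at 6.50. Oxidative phosphorylation had 10 of 30, led by the complex I subunits NDUFV2 at 6.46, with neither Flag list, and NDUFS1 at 5.20.

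Cell cycle genes had 12 of 36 (33.3%), led by the replication helicase subunit MCM5 at 17.9 and the cyclin CCND3 at 8.09, with CDK6 at 3.83 and CDK1 at 3.64. Splicing factors had 5 of 30 (16.7%), and 11 of 30 (36.7%) within 3 kb of an end, where all genes stood at 21.9%. Their members were SON at 13.6, SRSF5 at 9.19, SF3A1 at 7.58, HNRNPA1 at 6.05 and 1 other. For 24 of those 30 the end was at a peak with CTCF and H3K27ac. Zinc finger ZNF genes had 118 of 517 (22.8%), of which 98 had no other class, led by ZNF41, ZNF264 at 17.02, ZNF43 and ZNF615 at 9.14; ZNF264 and ZNF615 were in neither Flag list. Copies of zinc finger and ribosomal protein genes can share reads.

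Mediator, acetyltransferase and BET genes had 10 of 32 (31.3%), with MED24 at 5.63, MED1 at 5.15, MED16 at 5.02 and MED12 at 3.41. Deacetylases and corepressors had 9 of 30, with the NuRD subunits MTA1 at 7.03, MTA2 at 4.07 and MBD3 at 4.02 and with TBL1X at 5.11. Cohesin and looping had 3 of 17, the cohesin subunit STAG2 at 9.51, the zinc finger factor MAZ at 4.09 and the acetyltransferase ESCO2 at 4.08. The ZHX family with hypoxia signalling had 3 of 13, the prolyl hydroxylase EGLN2 at 4.46, ZHX1 at 3.71 and VHL at 2.97, none with a normoxia ZHX2 peak and all at both Flag lists. These members lay close to hypoxia CTCF peaks, at 19 bp for EGLN2, 95 bp for ZHX1 and 439 bp for VHL. The EGLN2 member also overlapped a normoxia CTCF peak of fold 26.4. Within 3 kb of an end these last lists stood at 8 of 17 (47.1%) and 6 of 13 (46.2%), beside 21.9% of all genes.

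The unfolded protein response had 7 of 22 (31.8%), led by the chaperone CALR at 8.15, with the sensor ATF6 at 3.96, SEC61B at 3.73 and CANX at 3.36. AP-1 and early response genes had 8 of 29, with JUNB at 6.31, ATF4 at 4.54, ZFP36L2 at 3.64 and ZFP36 at 3.08, and every one of the 8 also had a peak of another class. NF-kappaB had 6 of 22, with IKBKB at 4.19 and RELB at 3.41. Hypoxia-induced genes had 9 of 40 (22.5%): after PGK1 came the kinase PDK1 at 5.14, DDIT4 at 4.46 and the oxidase ERO1A at 4.09, and 1 of the 9 had a normoxia ZHX2 peak at a member. The DDIT4 and ERO1A members lay 27 and 140 bp from a hypoxia CTCF peak, and the PDK1 member 37121 bp. For 27 of the 40 the end was at a peak with CTCF and H3K27ac. Within 3 kb of an end, 17 of the 40 (42.5%) had a member, beside 21.9% of all genes.

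Lists tied to the identity of the cell line were near the 16.6% of all protein-coding genes at gene ends, but not in a wider window. Luminal identity had 4 of 26 (15.4%), with XBP1 at 5.79, PGR at 3.22, GATA3 at 2.41 and ELF3 at 2.32, the GATA3 member in neither Flag list though in a 35540 bp domain. Oestrogen receptor targets had 4 of 24, with CCND1 at 4.59 and CELSR2 at 3.52. Within 3 kb of an end, luminal identity had 13 of 26 (50.0%) and oestrogen receptor targets 9 of 24 (37.5%), while all protein-coding genes went only to 21.9%. The list of epithelial-mesenchymal transition, adhesion and invasion genes had 9 of 36 (25.0%), and 14 of 36 within 3 kb, with the claudin CLDN7 at 7.38, the integrins ITGB1 at 4.97 and ITGA3 at 3.57 and the receptor TGFBR1 at 3.57. The CLDN7, ITGA3 and TGFBR1 members lay 123, 72 and 200 bp from a hypoxia CTCF peak, and the ITGB1 member 18722 bp. Markers of other cells were rarer: 0 of 11 basal or myoepithelial genes, CD3E alone of 16 immune and stromal genes, RBFOX3 alone of 16 neuronal and liver genes, and 1 of 389 olfactory receptors had a member. Few of these genes had a hypoxia ZHX2 peak of any class: 3 of 11, 4 of 16, 6 of 16 and 7 of 389 in turn. Their low shares are therefore not particular to members.

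**Figure D5:**
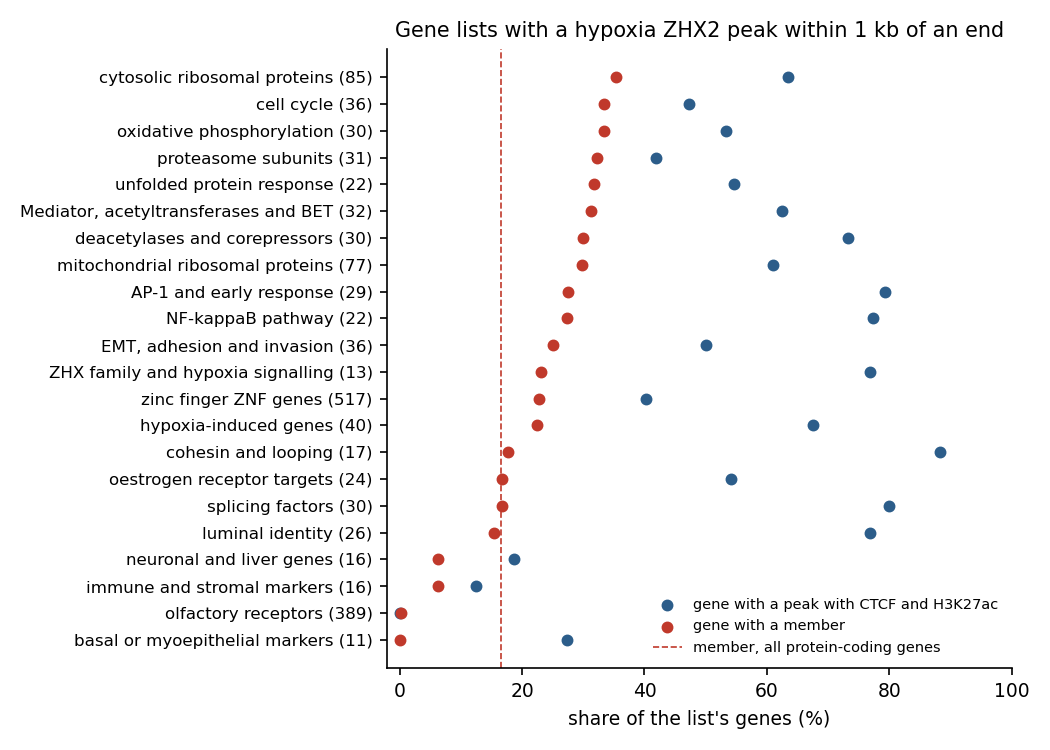
Share of genes (x axis, %) with a member (red) or a peak with CTCF and H3K27ac (blue) within 1 kb of an end in each of 22 gene lists (y axis, number of genes in brackets). The dashed line is the 16.6% of all protein-coding genes with a member; cytosolic ribosomal protein genes lie highest for members at 35.3%, and basal or myoepithelial markers at 0.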

How the data were processed

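Of 28 samples, 16 were immunoprecipitated, in 8 groups of 2 taken from titles and antibody labels. The submitters' processing notes name Bowtie2, cutadapt and MACS2 and the build GRCh38 (hg38). The authors deposited 1 peak list per group. The score, the fold enrichment (a ratio) and the −log10 q of each peak are the authors' values as deposited, used to rank or describe peaks within a list. Where hypoxia and normoxia folds stand side by side, they were not put on a common scale and do not measure a change in binding. Flag lists hold positions alone. Pooling of samples and use of inputs are not stated there.

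Peaks on chromosomes 1 to 22 and X sharing 1 bp or more were called overlapping. Shares of classes were tested by Fisher's exact test, two-sided (SciPy 1.17.1), with Benjamini-Hochberg adjustment over 17 tests and a threshold of 0.05. Strata were combined with the Mantel-Haenszel odds ratio. Wilson intervals cover counting error over peaks only. Overlap and odds ratio steps were tested on simulated data.

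Gene positions came from a RefSeq table of GRCh38.p14 and promoters from the RefSeq promoter table; chromosome 8 was not used for starts and promoters. Genes named are the members with the highest fold by place and by list, up to 4 per gene list, the 8 genes and 5 domains with most members, and the 6 sequences. Genes adjoining a named member are named with it. Members, lists and tests were chosen with earlier results of these data known.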

Additional observations from a re-analysis of the deposited data

How the results depend on the processing

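No paired analysis was possible because each group has 1 peak list and no values per replicate, so no list could be rebuilt without a replicate either. The number of members was 11372 with an overlap of 50% of the shorter peak, 14604 by summits, 7657 with no CTCF within 1 kb, 9069 without normoxia CTCF, 7011 at a −log10 q of at least 5 and 10503 on all contigs. Of 122 odds ratios recomputed for the 17 tests, 115 kept their direction and side of the threshold. The exceptions concern 2 tests. For gene ends against peaks with CTCF without H3K27ac, the odds ratio was 1.19 with the 50% overlap, 1.18 with peaks reduced to 200 bp, 1.26 with 1 peak per 100 kb and class and 1.42 with annotated starts only, all now passing. It turned to 0.935 at the stricter q and 0.991 within strata of width, neither passing. For normoxia ZHX2 against peaks with neither, 1 peak per 100 kb and class gave 1.09 (adjusted p = 0.0640, Fisher exact test). The cause was not tested. With a 3 kb window, 10 of the 22 gene list counts grew by over 1.5 times, among them cohesin and looping (8 of 17), splicing factors (11 of 30) and the ZHX family with hypoxia signalling (6 of 13), while the share of all protein-coding genes with a member went from 16.6% to 21.9%. In promoters overlapped by a summit, the CCAAT box share was 39.1% and that of the cyclic AMP response core 16.45%.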
